A study of Mus musculus with 60 samples.

Results

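The genes described here encode proteins that neutrophils store in their granules. They are 10 of the 49315 genes in the count tables, chosen by name and matched by gene identifier: Elane, Mpo and Prtn3 of the primary granules, Ltf, Camp, Ngp, Mmp8, Lcn2 and Cd177, listed here as secondary granule genes, and Mmp9 of the tertiary granules. All 10 were found, each under 1 identifier. Whole blood was taken from 60 male CD2F1 mice, purchased at 5 to 6 weeks of age, in 10 groups of 6. Every mouse was dosed by oral gavage for 6 days, 12 doses in all, with BIO 300, a powder formulation of synthetic genistein, or with its vehicle of water, methylcellulose and polyvinylpyrrolidone. Unirradiated mice received vehicle or BIO 300 at 50, 100 or 200 mg/kg, given as genistein, and were sampled either on Day 0, when 24 h had passed since the last dose, or on Day 1, when 48 h had. A group given vehicle and a group given 200 mg/kg received 9.2 Gy of cobalt gamma total-body irradiation (TBI) at the Day 0 time and were sampled on Day 1, with 24 h between TBI and sampling. The irradiated groups therefore share the dosing of their unirradiated Day 1 counterparts, and Day 0 and Day 1 mice are different animals.

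Granule proteins are made in the bone marrow in a fixed order as the neutrophil matures, and mature cells in blood carry the finished proteins after most of the transcription has ended. Primary (azurophil) granules are filled at the promyelocyte stage, secondary (specific) granules at the myelocyte and metamyelocyte stages, and tertiary (gelatinase) granules later, in band and segmented cells. Transcripts of the primary granule genes are therefore rich in marrow precursors and scarce in mature blood neutrophils. In whole blood, fewer cells of a type and less RNA per cell cannot be told apart, and each value below is relative to the other RNA of the same library.

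The members lie on 5 chromosomes (GRCm38, GENCODE release M21), and every one is a protein-coding gene. Prtn3 (chr10:79874476-79883174) and Elane (chr10:79886247-79888215) are neighbours on the plus strand with a gap of 3.07 kb. Camp (chr9:109847379-109849617, minus strand), Ngp (chr9:110419747-110423012) and Ltf (chr9:111019271-111042767) follow each other on chromosome 9, with gaps of 570.1 kb and 596.3 kb, and Mmp8 (chr9:7558456-7568485) lies far from them on the same chromosome. Mpo is at chr11:87793581-87804413, Lcn2 at chr2:32384633-32388252 on the minus strand, Mmp9 at chr2:164940780-164955850 and Cd177 at chr7:24743983-24760311 on the minus strand.

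Upstream sequence from RefSeq (GRCm38.p6) was found for 9 of the 10 genes. It is shown for Ltf, Ngp and Camp, whose levels moved together across mice, for Mmp8, which rose after TBI, and for Cd177, which fell in unirradiated BIO 300-treated mice. Each stretch starts 250 bases before the RefSeq start site and stops before the first base of any GENCODE exon. The stretches are chr9:111019042-111019270 on the plus strand, chr9:110419558-110419746 on the plus strand, chr9:109849618-109849706 on the minus strand, chr9:7558179-7558428 on the plus strand and chr7:24760312-24760561 on the minus strand, and each is written 5′ to 3′ in the direction of its gene. Capitals mark matches, on either strand, to the C/EBP letters TTNCNNAA or the ETS letters AGGAAG, which do not overlap in these stretches.
Ltf: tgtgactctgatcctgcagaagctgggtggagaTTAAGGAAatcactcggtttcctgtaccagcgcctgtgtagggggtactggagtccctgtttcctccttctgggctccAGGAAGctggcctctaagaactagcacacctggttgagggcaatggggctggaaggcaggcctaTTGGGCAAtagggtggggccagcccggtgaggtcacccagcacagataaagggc
Ngp: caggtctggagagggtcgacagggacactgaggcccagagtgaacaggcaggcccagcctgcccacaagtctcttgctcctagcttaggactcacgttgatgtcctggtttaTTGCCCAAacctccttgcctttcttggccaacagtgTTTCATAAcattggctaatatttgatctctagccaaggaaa
Camp: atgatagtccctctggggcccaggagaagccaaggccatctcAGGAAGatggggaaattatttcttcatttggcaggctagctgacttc
Mmp8: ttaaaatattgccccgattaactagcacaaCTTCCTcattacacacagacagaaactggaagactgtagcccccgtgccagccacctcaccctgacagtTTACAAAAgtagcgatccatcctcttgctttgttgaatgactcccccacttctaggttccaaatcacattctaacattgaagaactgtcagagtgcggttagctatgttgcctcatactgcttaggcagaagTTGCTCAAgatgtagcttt
Cd177: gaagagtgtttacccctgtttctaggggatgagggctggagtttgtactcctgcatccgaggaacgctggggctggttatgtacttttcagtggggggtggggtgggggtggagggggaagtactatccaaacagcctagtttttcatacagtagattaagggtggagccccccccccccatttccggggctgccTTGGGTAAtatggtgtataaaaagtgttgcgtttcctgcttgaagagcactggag
Over the whole window of 250 bases, the C/EBP letters occurred at 2 places for Ltf, 3 for Ngp, 2 for Mmp8, 1 for Lcn2, 1 for Cd177 and 0 for Camp, Elane, Mpo and Prtn3. The same letters occurred in 36.8% of all 32851 RefSeq windows of this length. The ETS letters occurred in 29.5% of all windows. Among the members they occurred at 3 places for Mpo and Lcn2, 2 for Prtn3 and Camp, 1 for Elane, Ltf and Mmp8, and 0 for Ngp and Cd177. These matches describe letters in a window and not sites of binding.

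The libraries held 15099415 to 45589415 counts. Liver transcripts, with Alb (albumin) at 100 CPM (counts per 1000000 counts) or more, were present in 10 libraries, with 0 to 2 in a group. Libraries under this limit are described below as without liver transcripts, although Alb reached 58.7 CPM among them. The 8 mature neutrophil genes used to check for the cell type (S100a8, S100a9, Csf3r, Cxcr2, Retnlg, Ly6g, Trem1 and Padi4) had counts in every group, at a summed 261 to 1054 CPM in the unirradiated mice and 1677 to 7005 CPM in the irradiated mice on the total-count scale. A gene was called here when its Benjamini-Hochberg adjusted p over all genes tested, from edgeR's quasi-likelihood test, was under 0.05 and its absolute log2 fold change was over 1. Levels below are CPM with TMM scaling over the 60 mice unless another scale is named, and log2 fold changes are given ± SE from fits with TMM scaling of the groups compared.

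The members covered a wide range of levels. Mmp9, which encodes gelatinase B, made up 58.2% of all counts of the 10 genes, and Elane, which encodes neutrophil elastase, 0.016%. Per kilobase of exon, the median over the 60 mice was 11.1 CPM for Mmp9, 5.79 for Mmp8 (neutrophil collagenase), 2.91 for Cd177 (a surface glycoprotein), 2.61 for Lcn2 (lipocalin-2, which binds bacterial siderophores) and 1.95 for Ngp (neutrophilic granule protein). Camp (the cathelicidin antimicrobial peptide) stood at 0.387, Ltf (the iron-binding lactoferrin) at 0.24, Prtn3 (proteinase 3) at 0.0887 and Mpo (myeloperoxidase) at 0.0217. On the per-length scale the primary granule genes thus stood below all secondary and tertiary granule genes.

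Across the 60 mice the members fell into sets by their log2(CPM + 1) values, given here as description, since all points share library composition and the irradiated mice weigh heavily. Pearson's r was 0.92 between Mmp8 and Mmp9, 0.89 between Lcn2 and Mmp9 and 0.82 between Cd177 and Mmp9. It was 0.88 between Ltf and Ngp, 0.72 between Camp and Ngp and 0.59 between Ltf and Camp. Between Ltf, Camp and Ngp on one side and Mmp8, Lcn2, Cd177 and Mmp9 on the other it ran from -0.39 for Camp and Mmp9 to 0.39 for Ltf and Cd177. Elane and Mpo stood at 0.61 with each other and at 0.55 to 0.59 with Ltf, Camp and Ngp. These values rest on few counts. Elane had no count in 50 mice and Mpo none in 16, and 80.6% of the Elane counts came from 3 mice.

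**Figure D1:**
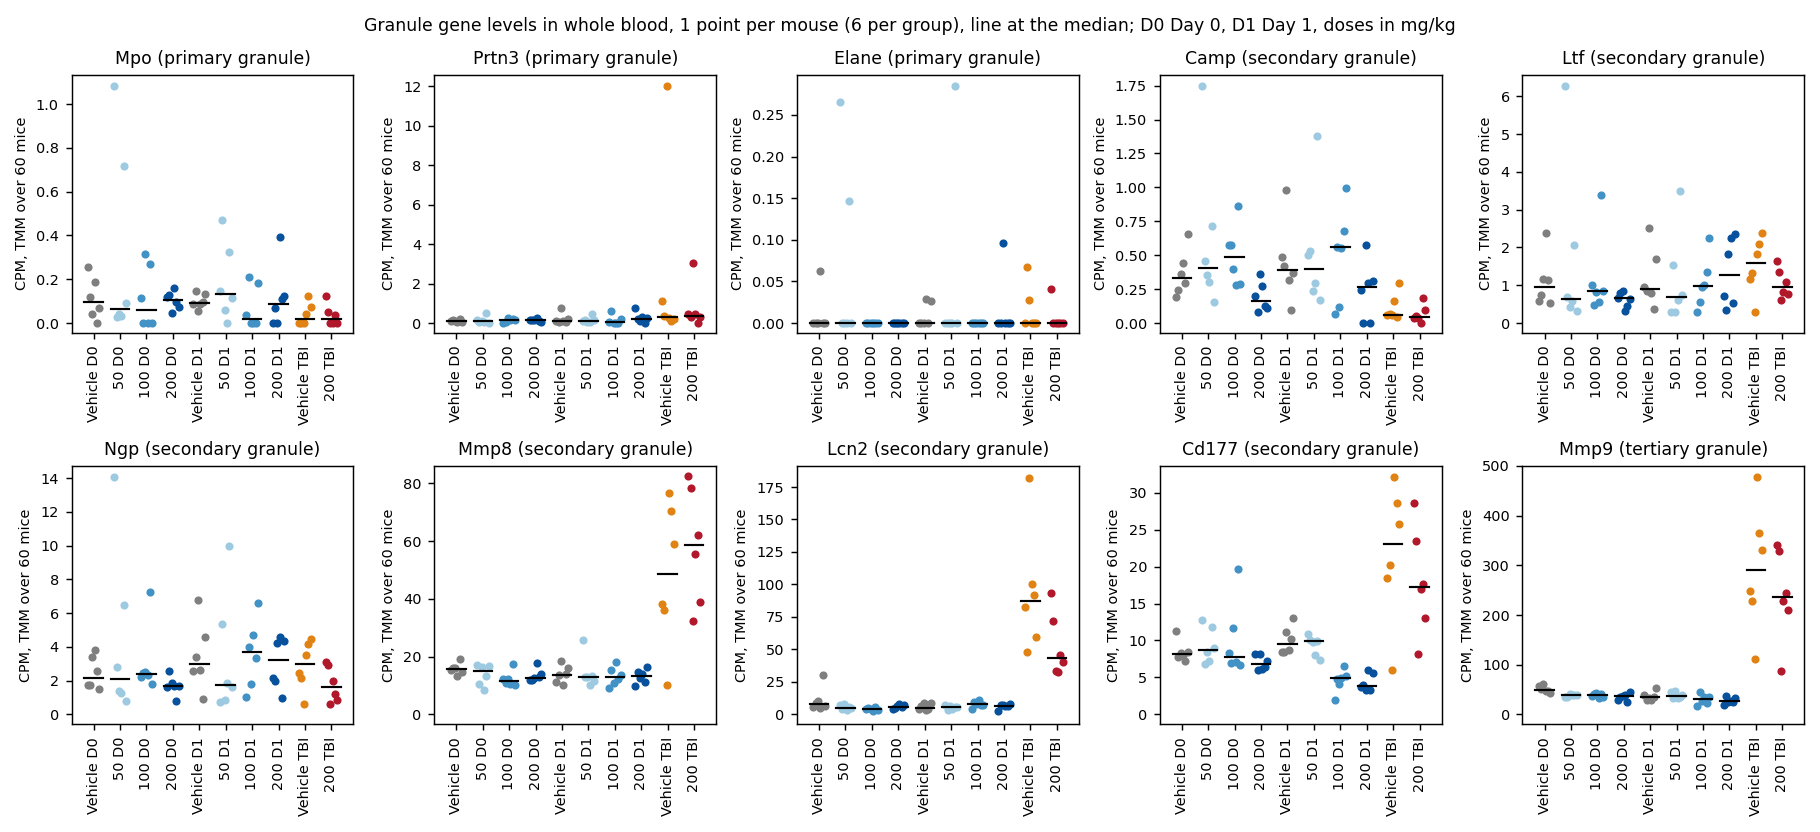
Level of each granule gene in CPM (TMM over 60 mice, linear axes that differ between panels) in the 10 groups, with 1 point per mouse and a line at the median of 6. Mmp8, Lcn2, Cd177 and Mmp9 stand higher in the irradiated groups on the right, Camp stands lower there, and the high points of Prtn3 are single libraries.

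TBI in vehicle-treated mice was followed by higher Lcn2, Mmp9, Mmp8 and Cd177 and by lower Camp. Against unirradiated vehicle-treated mice on Day 1, 5 of the 9 members tested were called higher and 1 lower. Over all 25146 genes tested, 19.6% were called higher and 16.4% lower, and the median log2 fold change was 0.09 over all genes and 1.11 over the 9 members. Elane, with too few counts, was not tested in this comparison.

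Lcn2 ran from 3.44 to 8.56 CPM with a median of 5.27 in the unirradiated mice and from 47.9 to 182 CPM with a median of 87.5 after TBI. The groups did not overlap, and the log2 fold change was 3.98 ± 0.37, a 15.8-fold difference, with an adjusted p of 8.4e-06. The highest irradiated mouse, number 51, was also the library with the most liver transcripts, and Lcn2 is made by liver as well as by neutrophils. Among the 4 irradiated vehicle-treated mice without liver transcripts Lcn2 was 74.8 ± 25.1 CPM (SD, n = 4), against 6.2 ± 2.32 CPM (SD, n = 5) in the unirradiated ones, and without all liver-bearing libraries the log2 fold change was 3.62 ± 0.29.

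Mmp9 ran from 28.1 to 53.5 CPM with a median of 34.6 in unirradiated mice and from 112 to 477 CPM with a median of 290.3 after TBI. Every irradiated mouse stood above every unirradiated one, and the log2 fold change was 3.00 ± 0.32, or 8.01-fold, with an adjusted p of 2.2e-05. Mmp8 ran from 10.1 to 18.4 CPM with a median of 13.8 before and from 10.3 to 76.7 CPM with a median of 48.5 after TBI. Of the 6 irradiated mice 5 stood above the unirradiated median, mouse 51 being the exception, and the log2 fold change was 1.78 ± 0.39 with an adjusted p of 0.0024.

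Cd177 ran from 8.37 to 13.1 CPM with a median of 9.48 in unirradiated mice and from 6.06 to 32.1 CPM with a median of 23 after TBI. The log2 fold change was 1.11 ± 0.32 with an adjusted p of 0.014, and mouse 51 was again the low irradiated mouse. It became 0.96, under the fold limit, when mouse 52, the highest, was left out. Scaling by total counts gave 0.67 ± 0.30, which was not called.

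Camp was the member called lower. It ran from 0.0945 to 0.98 CPM with a median of 0.393 in unirradiated mice and from 0.0418 to 0.297 CPM with a median of 0.0628 after TBI. These levels rest on 3 to 37 counts per library before and 1 to 8 counts after TBI. No irradiated mouse exceeded the unirradiated median, the ranges overlapped, and the log2 fold change was -1.96 ± 0.59 with an adjusted p of 0.016.

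Ltf and Ngp, also listed as secondary granule genes, were not called. Ltf had a median of 0.889 CPM without and 1.59 CPM with TBI, and its log2 fold change was 0.32 ± 0.51. Ngp had medians of 3.00 and 2.99 CPM, and its log2 fold change was -0.29 ± 0.49. Mpo had a median of 3 counts per library without and 0.5 counts with TBI, and its log2 fold change was -1.31 ± 0.73 with an adjusted p of 0.15. It was -2.01 with an adjusted p of 0.045 when mouse 53, with 3 counts, was left out.

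The call for Prtn3 rested on single libraries. Its counts in the irradiated vehicle-treated mice ran from 2 to 426 with a median of 6, and mouse 51 held the 426. The log2 fold change was 3.34 ± 1.2 with an adjusted p of 0.036, and 0.89 with an adjusted p of 0.33 without mouse 51. Leaving out any of 5 of the 6 unirradiated mice also ended the call, with values from 3.09 to 3.29. In the 3 irradiated libraries with liver transcripts Prtn3 had 38, 158 and 426 counts, in the 9 irradiated libraries without them 0 to 11, and in the 7 unirradiated libraries with liver transcripts 2 to 19. Without the libraries that held liver transcripts the log2 fold change was -0.18 ± 0.72 with an adjusted p of 0.84, and DESeq2 gave the gene no p here or against vehicle on Day 0.

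Against vehicle-treated mice on Day 0, the other unirradiated control, the same 6 genes were called in the same directions, where 15.1% of all 24751 genes were called higher and 11.8% lower. The log2 fold changes were 3.13 ± 0.48 for Lcn2, 2.65 ± 0.32 for Mmp9, 1.74 ± 0.39 for Mmp8, 1.48 ± 0.34 for Cd177, 4.21 ± 1.14 for Prtn3 and -1.54 ± 0.53 for Camp. Both comparisons share the irradiated mice. Prtn3 again leaned on mouse 51, without which it stood at 1.87 with an adjusted p of 0.022. Without the libraries with liver transcripts it stood at 1.17 ± 0.56 with an adjusted p of 0.09 and was not called. The call for Camp was lost when any of 5 single mice was left out, with adjusted p from 0.058 to 0.093, and without the libraries with liver transcripts, at -1.26 ± 0.58. Scaled to the mature neutrophil genes, as described below, no member was called higher and 6 were called lower (Mpo, Ltf, Camp, Ngp, Mmp8 and Cd177), against 0.178% and 67.1% of all genes. Between the vehicle groups on Day 1 and Day 0 no member was called, as was 0% of all 24375 genes. An unadjusted edgeR p under 0.05 was seen for 1 member, Mmp9 at -0.49 ± 0.15, and for 3007 of all genes. DESeq2 called no member.

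In the mice given 200 mg/kg, irradiated against unirradiated on Day 1, Mmp9, Lcn2, Mmp8 and Cd177 were again higher. Of the 9 members tested 4 were called higher and none lower, against 14.9% of all 23610 genes higher and 5.73% lower. Mmp9 ran from 19.7 to 37.6 CPM with a median of 26 without TBI and from 88.1 to 341 CPM with a median of 236 with it, a log2 fold change of 3.06 ± 0.30. Lcn2 ran from 2.91 to 8.00 CPM without and from 32.4 to 93.8 CPM with TBI, a log2 fold change of 3.01 ± 0.34. Neither gene's groups overlapped.

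Mmp8 and Cd177 behaved alike in these mice. Mmp8 ran from 9.73 to 16.4 CPM without and from 32.4 to 82.3 CPM with TBI, and its log2 fold change was 2.10 ± 0.25 with an adjusted p of 9e-05. Cd177 ran from 3.25 to 5.96 CPM without and from 8.14 to 28.6 CPM with TBI, and its log2 fold change was 2.01 ± 0.30 with an adjusted p of 4e-04. For both genes the lowest irradiated mouse stood above the highest unirradiated one. Scaled to mature neutrophil genes, as described below for the vehicle-treated mice, none of the 4 was called, at -0.20 for Mmp8, -0.32 for Cd177, 0.72 for Mmp9 and 0.76 for Lcn2. On that scale Mpo, Ltf, Camp and Ngp were called lower, at -3.84, -2.58, -3.87 and -3.19, where 48.7% of all genes were called lower and 1.93% higher. Camp had a log2 fold change of -1.75 ± 0.90 with an adjusted p of 0.16, and Prtn3 one of 1.39 ± 0.97 with an adjusted p of 0.30, so that neither was called.

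**Figure D2:**
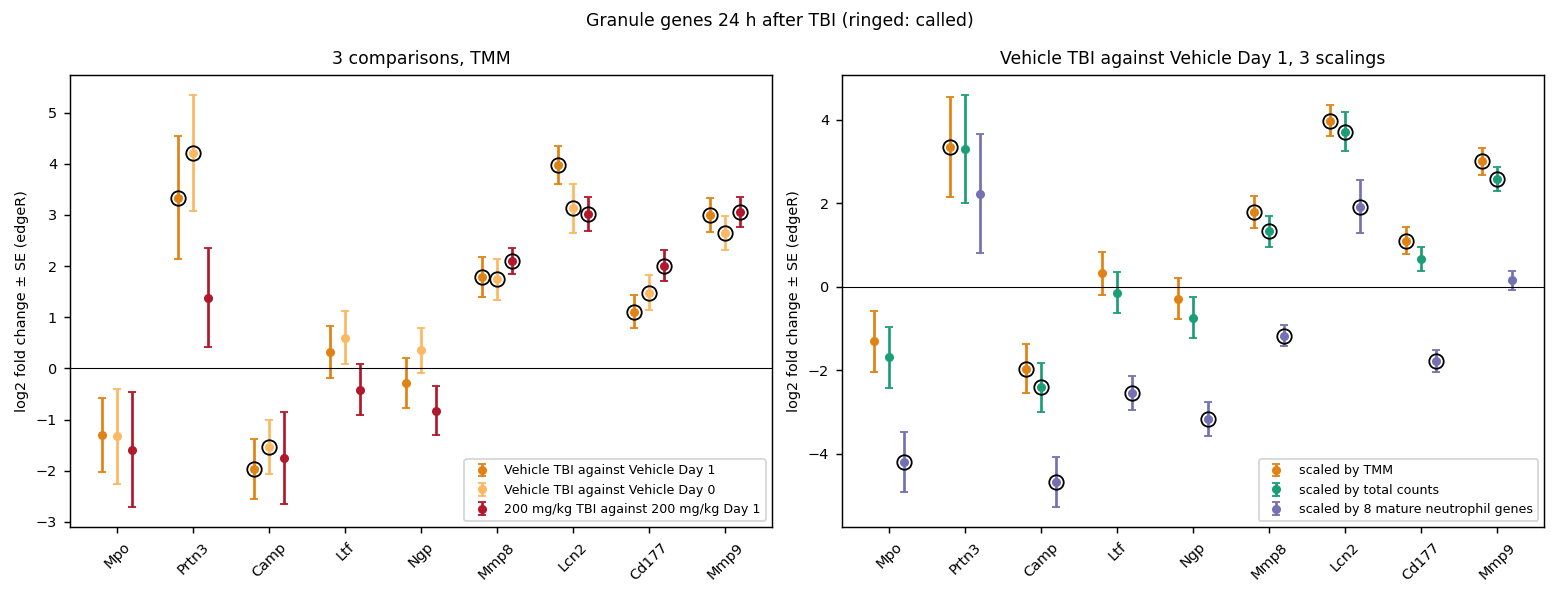
Log2 fold changes ± SE (edgeR) of the 9 members tested after TBI, in 3 comparisons scaled by TMM (left) and, for vehicle-treated mice against vehicle Day 1, under 3 scalings (right), with called values ringed. Lcn2, Mmp9, Mmp8 and Cd177 lie above 0 in all 3 comparisons, and with scaling by the mature neutrophil genes Mmp9 moves to 0.16 while Camp, Mpo, Ngp and Ltf move to values from -4.67 to -2.54.

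Mature neutrophil genes were also higher after TBI. All 8 mature neutrophil genes were called higher after TBI in vehicle-treated mice, with a median log2 fold change of 3.01, led by the enzyme gene Padi4 at 3.29 ± 0.51, the receptor genes Csf3r at 3.19 ± 0.40 and Cxcr2 at 3.13 ± 0.38, and Trem1 at 3.13 ± 0.33. In the same comparison all 8 B cell genes and all 8 T cell genes were called lower, with medians of -3.49 and -2.32. All 7 platelet genes and 3 of 6 progenitor and cell cycle genes were called higher, and the 8 hepatocyte genes had a median of 4.16 with none called. The part of these other cell types in the granule gene values was not tested.

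Scaled to the summed counts of the 8 mature neutrophil genes, 6 of the 9 members were called lower and Lcn2 alone higher. On this scale 68.9% of all genes were called lower and 0.302% higher, and the median gene was at -2.35. Camp stood at -4.67 ± 0.60, Mpo at -4.20 ± 0.71, Ngp at -3.17 ± 0.42 and Ltf at -2.54 ± 0.41, all below that median. Cd177 at -1.78 ± 0.27, Mmp8 at -1.17 ± 0.24, Mmp9 at 0.16 ± 0.23 and Lcn2 at 1.92 ± 0.63 were above it. The Lcn2 value includes mouse 51, with 6471 Lcn2 counts, Alb at 21977 CPM and the lowest neutrophil sum of its group, at 1677 CPM. This scaling was not run without mouse 51 or the other libraries with liver transcripts. Per neutrophil count all 6 irradiated mice stood above the unirradiated Lcn2 median, but the groups overlapped.

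The same pattern showed in single mice. Per 1000 counts of the mature neutrophil genes, Ngp ran from 1.86 to 10.1 in unirradiated vehicle-treated mice, and the irradiated ones ran from 0.506 upward with a median of 0.69. Ltf ran from 0.772 to 3.75 and from 0.23 to 0.452, and Camp from 0.193 to 1.46 and from 0.00656 to 0.0553. For all 3 genes the groups were separate. Mpo, Mmp8 and Cd177 were also lower in every irradiated mouse on this scale, while Lcn2 and Prtn3 overlapped. How many of all genes separated in this way was not counted, and 68.9% of all genes were called lower with this scaling. Mmp9 ran from 49.5 to 83.8 and from 57.2 to 91.2, with wide overlap.

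A ratio inside each library does not depend on scaling. The summed counts of Ltf, Camp and Ngp per 1000 counts of Mmp8, Mmp9 and Cd177, a grouping chosen after the values were seen and therefore given without a test, had medians from 43.8 to 112 in the 8 unirradiated groups. The medians were 12.3, with a range from 7.48 to 17.1, in vehicle-treated mice after TBI and 9.55, with a range from 6.58 to 10.6, in the BIO 300-treated mice after TBI. The lowest unirradiated mouse, given 50 mg/kg and sampled on Day 1, stood at 18.6, so all 12 irradiated mice were below all 48 unirradiated ones. As the grouping was chosen after these values were seen, this separation cannot test a difference. Mmp9 held 58.2% of all member counts, beside 15.4% for Mmp8 and 7.79% for Cd177. Ltf and Ngp were not called after TBI with TMM scaling, so the ratio largely follows Mmp9.

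**Figure D3:**
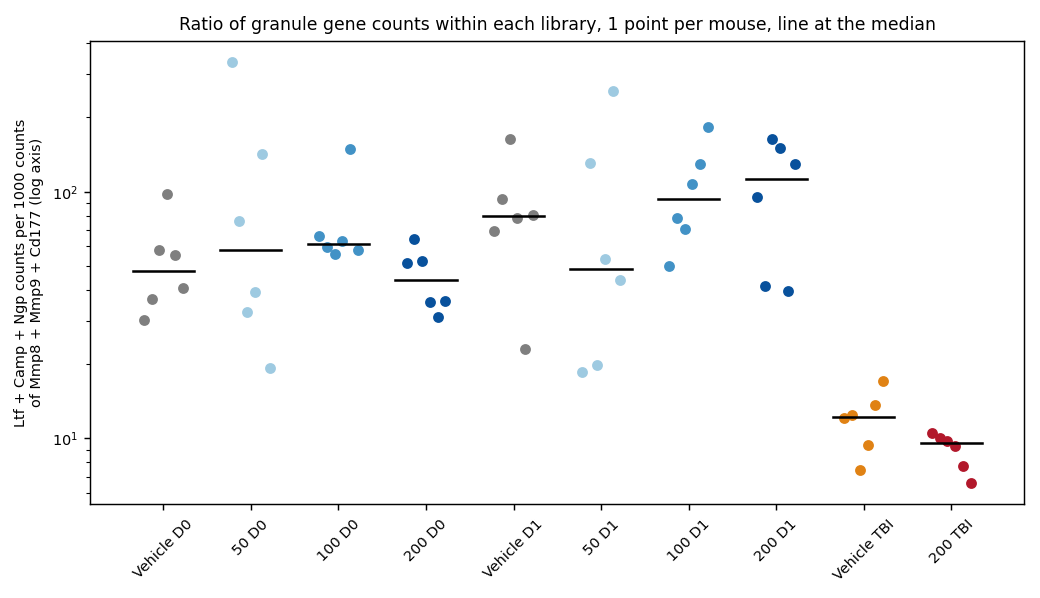
Counts of Ltf, Camp and Ngp per 1000 counts of Mmp8, Mmp9 and Cd177 in each library (log axis), by group, with 1 point per mouse and a line at the median. The irradiated mice sit between 6.58 and 17.1, and the unirradiated mice between 18.6 and 336.

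Other genes of the granule pathway were read from lists held beside the members. Of 13 further secondary and tertiary granule genes, 7 were called higher and 1 lower after TBI in vehicle-treated mice, with a median log2 fold change of 2.00. Hp (haptoglobin, also a liver product) stood at 4.33 ± 0.64, Olfm4 (olfactomedin-4) at 3.11 ± 0.43 and Mmp25 (a membrane-bound metalloproteinase) at 2.58 ± 0.31. Chil3, which encodes a chitinase-like protein, was the gene called lower, at -3.53 ± 0.38. Secretory vesicle genes were higher for 3 of 6, namely Cd14 at 2.99 ± 0.28, Fpr1 at 2.80 ± 0.33 and Fpr2 at 2.75 ± 0.37, a lipopolysaccharide co-receptor and the formyl peptide receptors.

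Of 6 further primary granule genes tested, 3 were called higher and 1 lower. Serpinb1a, an inhibitor of the neutrophil serine proteases, stood at -2.09 ± 0.67, Prss57 (a serine protease), with 17 counts before and 51 after TBI, at 1.98 ± 0.65, Srgn (the granule proteoglycan serglycin) at 1.87 ± 0.30 and Cd63 (a granule membrane protein) at 1.24 ± 0.20. Of 8 transcription factor genes that control granule genes, 6 were called higher, among them Cebpd at 2.71 ± 0.36, Cebpa at 2.06 ± 0.54, Cebpb at 1.5 ± 0.24 and Spi1 at 1.47 ± 0.25. Gfi1, a repressor needed for neutrophil maturation and named here after its value was seen, was the gene called lower, at -1.10 ± 0.26.

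BIO 300 before TBI was not followed by a called change in any member. Irradiated mice given 200 mg/kg and irradiated mice given vehicle differed by a call in none of the 9 members tested, as in 0% of all 24916 genes. An unadjusted edgeR p under 0.05 was seen for 1 member, Lcn2, and for 688 of all genes. DESeq2 likewise called no member. Lcn2 ran from 47.9 to 182 CPM with vehicle and from 32.4 to 93.8 CPM with BIO 300, a log2 fold change of -0.88 ± 0.36. The medians were 290.3 and 236 CPM for Mmp9, 48.5 and 58.8 for Mmp8, and 23 and 17.3 for Cd177, and every pair of groups overlapped on the TMM scale. The log2 fold changes were -0.35 ± 0.35, 0.22 ± 0.40 and -0.34 ± 0.37 in that order. How many of all genes separated per 1000 counts of the mature neutrophil genes was not counted. Mmp8 was the only member that did, and it overlapped with total counts. Per 1000 counts of the mature neutrophil genes it ran from 8.42 to 13.3 with vehicle and from 14 to 21.2 with BIO 300, without overlap. With scaling by those genes its log2 fold change was 0.61 ± 0.25 with an unadjusted edgeR p of 0.028 and an adjusted p of 1.00.

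The difference between the response to TBI with 200 mg/kg and with vehicle, as an interaction, gave no called member, where 29.6% of all 26875 genes were called in either direction. Cd177 came nearest, at 1.02 ± 0.42 with an adjusted p of 0.064. It was called when any of 4 single mice was left out, with values from 1.11 to 1.16, and also with odd or even animal number as a term, at 1.07. Scaled by total counts, which shifted the median gene by 1.11, Mmp8, Cd177 and Mmp9 were called higher, beside 43.6% of all genes. DESeq2 called no member. The log2 interaction values were 0.19 ± 0.39 for Mmp9, 0.45 ± 0.44 for Mmp8 and -0.86 ± 0.47 for Lcn2. The interaction rests in part on the unirradiated 200 mg/kg mice, which are also used in the Day 1 dose comparison.

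In unirradiated mice, Cd177 was the member called for BIO 300, on Day 1, at 100 and 200 mg/kg. It ran from 8.37 to 13.1 CPM in vehicle-treated mice, from 7.3 to 10.9 CPM at 50 mg/kg, from 1.99 to 6.56 CPM at 100 mg/kg and from 3.25 to 5.96 CPM at 200 mg/kg. The medians were 9.48, 9.89, 4.92 and 3.8 CPM. The 12 mice given 100 or 200 mg/kg all stood below the 12 given vehicle or 50 mg/kg.

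The log2 fold change of Cd177 against vehicle was -1.06 ± 0.23 at 100 mg/kg, with an adjusted p of 0.0012, and -1.14 ± 0.20 at 200 mg/kg, with an adjusted p of 0.00017. In these comparisons 30.6% of 23699 genes and 30.5% of 23513 genes were called lower, so 1 of 9 members called is below the background. At 50 mg/kg the value was -0.09 ± 0.13, and no member was called, as was 0% of 24118 genes. No member was under an unadjusted edgeR p of 0.05, where 4458 of all genes were, and DESeq2 called none. The fold at 100 mg/kg fell to -0.87 ± 0.17, under the limit, without the libraries that held liver transcripts, and to -0.89 without mouse 37 alone. Both comparisons share the vehicle-treated mice.

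Between doses, Cd177 stood at -0.97 ± 0.23 for 100 against 50 mg/kg, with an adjusted p of 0.0018 and just under the fold limit, and the mice of both groups were separate. No member was called there, where 46.3% of all 23011 genes were called in either direction. Cd177 was called, at values down to -1.11, when any of 4 single mice (34, 36, 41 or 42) was left out. Lcn2, at 0.55 ± 0.23, was the other member under an unadjusted edgeR p of 0.05, where 15748 of all genes were. DESeq2 called no member. For 200 against 100 mg/kg the Cd177 value was -0.06 ± 0.26, and no member was called, as was 0% of 19942 genes. No member was under an unadjusted edgeR p of 0.05, where 725 of all genes were, and DESeq2 called none.

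The call for Cd177 held under each scaling, while the other members depended on it. Total-count scaling shifted the median gene by -1.38 at 100 mg/kg and by -1.48 at 200 mg/kg on the log2 scale. On that scale 6 of 9 members at 100 mg/kg and 7 of 9 at 200 mg/kg were called lower, against 62.2% and 65.5% of all genes. Cd177 stood lowest, at -2.46 ± 0.22 and -2.63 ± 0.23, against medians over all genes of -1.76 and -1.96. Mmp9 stood at -1.55 ± 0.24 and -1.82 ± 0.18, and Mmp8 at -1.39 ± 0.22 and -1.53 ± 0.20, near those medians.

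Scaled to the mature neutrophil genes, Cd177 was the member called, at -1.67 ± 0.20 and -1.51 ± 0.23, where 43.9% and 37.7% of all genes were called lower. Mmp9 was at -0.79 ± 0.18 and -0.66 ± 0.21, with adjusted p of 0.0014 and 0.011 but under the fold limit. The 8 neutrophil genes did not move as 1 set in these mice. S100a8 stood at 1.32 ± 0.16, S100a9 at 1.2 ± 0.15 and Trem1 at 1.43 ± 0.15 at 100 mg/kg, all called higher, while Csf3r, named after its value was seen, was at -0.18 ± 0.21. At 200 mg/kg Trem1 alone was called, at 1.44 ± 0.14.

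**Figure D4:**
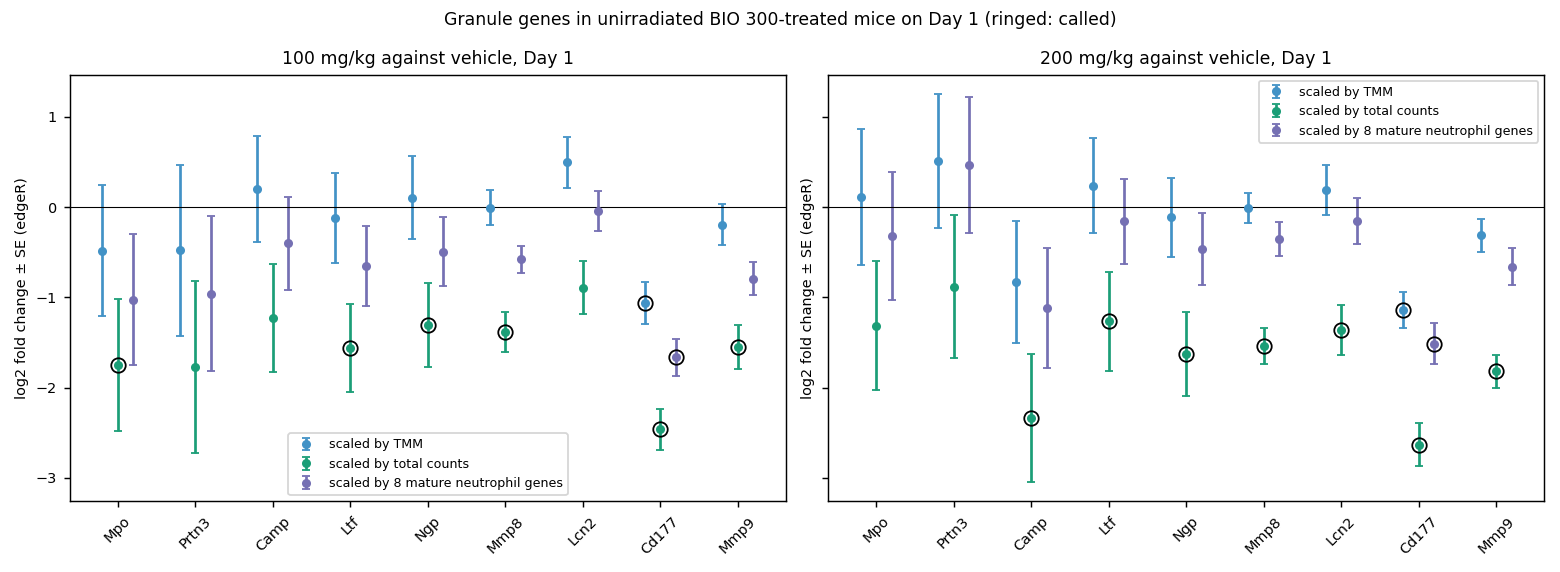
Log2 fold changes ± SE (edgeR) of the 9 members tested in unirradiated mice on Day 1, at 100 mg/kg (left) and 200 mg/kg (right) against vehicle, under 3 scalings, with called values ringed. Cd177 is ringed under every scaling at both doses, and the values scaled by total counts lie lower for every member.

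Marker transcripts of other blood cell types also differed in these groups. With TMM scaling all 7 platelet and all 7 erythroid genes were called higher at both doses, with medians of 3.10 and 2.12 at 100 mg/kg and of 3.22 and 2.25 at 200 mg/kg, and all 8 B cell and all 8 T cell genes were called lower at both. Over all genes 18.2% and 17.3% were called higher. Of 6 progenitor and cell cycle genes 5 were called higher at each dose, with medians of 1.98 and 2.13, and their summed level ran from 150.1 to 369 CPM with vehicle, from 857 to 948 CPM at 100 mg/kg and from 653 to 1407 CPM at 200 mg/kg. Of 6 monocyte genes, F13a1 (a coagulation factor subunit that platelets also carry) was called higher at both doses, at 2.58 ± 0.25 and 2.70 ± 0.20, while 3 were called lower at 100 mg/kg and 1 at 200 mg/kg. The summed level of the 6 ran from 356 to 596 CPM with vehicle, from 842 to 1925 CPM at 100 mg/kg and from 1058 to 1336 CPM at 200 mg/kg. On the total-count scale these monocyte sums overlapped, at 558 to 889, 408 to 975 and 534 to 738 CPM. The progenitor and cell cycle sums overlapped there at 200 mg/kg only, and the platelet, erythroid, B cell and T cell sums at neither dose. The part of these cell types in the values of the granule genes was not tested.

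The further granule genes on Day 1 gave a mixed count. Of 13 secondary and tertiary genes 3 were called lower at 100 mg/kg, with a median of -0.49 beside -0.38 over all genes. These were Itgb2l (an integrin beta subunit), with 56 counts in the vehicle group and 3 at this dose, Chil3 at -1.32 ± 0.25 and Cybb (the NADPH oxidase subunit gp91phox) at -1.25 ± 0.24. At 200 mg/kg Chil3 stood at -1.96 ± 0.30 and Cybb at -1.02 ± 0.28, and both were called. Of 6 further primary granule genes the 100 mg/kg group had 2 called higher and 2 lower, and the 200 mg/kg group 1 higher and 3 lower. Cd63 was called higher at 100 mg/kg, at 1.03 ± 0.23. Ctsg (cathepsin G) was called lower at 200 mg/kg, with 34 counts over the 6 vehicle-treated mice, 28 at 50 mg/kg, 8 at 100 mg/kg and 0 at 200 mg/kg. Prss57 was called lower at both doses, with 17, 5, 1 and 0 counts in that order. Srgn was called higher at both doses, at 2.16 ± 0.19 and 2.22 ± 0.17, and Ctsc, the protease that activates the granule serine proteases, lower at both, at -1.66 ± 0.18 and -1.37 ± 0.28. Of the 8 transcription factor genes Cebpa was called higher at 100 mg/kg, at 1.51 ± 0.25, and Cebpe, which drives secondary granule genes, at 200 mg/kg, at 1.26 ± 0.24.

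On Day 0 no member was called at any dose. The share of all genes called was 4.5% of 24485 at 50 mg/kg, 0% of 24000 at 100 mg/kg and 0% of 23795 at 200 mg/kg. An unadjusted edgeR p under 0.05 was seen for 2, 3 and 2 members in that order, and for 7588, 726 and 2146 of all genes tested. DESeq2 called no member. Mmp9 ran from 43.6 to 61 CPM with vehicle and from 34.3 to 41.5 CPM at 50 mg/kg, with no overlap. Its log2 fold change was -0.39 ± 0.09 with an adjusted p of 0.015 and stayed under the fold limit. At 100 mg/kg Mmp9 ran from 32.5 to 42.6 CPM, also below every vehicle-treated mouse, and at 200 mg/kg from 24.1 to 45.8 CPM, with no mouse above the vehicle median. Its log2 fold changes there were -0.41 ± 0.10 and -0.51 ± 0.15, with unadjusted edgeR p of 0.0012 and 0.0043 and adjusted p of 1.00 and 0.55. With total counts the groups overlapped at both doses. On the total-count scale, which shifted the median gene by 0.66 at 50 mg/kg, 5 of the 6 mice given that dose stood above the vehicle median for Mmp9, and Camp, Ngp and Elane were called higher, as were 10.5% of all genes.

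Cd177 ran from 7.16 to 11.2 CPM with vehicle and from 6.06 to 8.21 CPM at 200 mg/kg on Day 0, a log2 fold change of -0.26 ± 0.12. The change of the drug effect from Day 0 to Day 1, as an interaction, was called for Cd177 and Lcn2 at 100 mg/kg, at -1.31 ± 0.36 with an adjusted p of 0.0034 and at 1.88 ± 0.52 with an adjusted p of 0.0041. Among all 25908 genes 26.3% were called lower and 15.7% higher in that interaction. For Lcn2 the call was lost with total counts, at 0.28, and with scaling by neutrophil genes, at 0.78. Lcn2 was -1.40 ± 0.43 on Day 0 and 0.50 ± 0.28 on Day 1 at this dose. Its vehicle value on Day 0 included mouse 17, at 30.2 CPM with liver transcripts, where the next mouse stood at 10.1 CPM. Without mouse 17 the Day 0 value was -0.76. Without the libraries with liver transcripts the interaction was still called, at 1.33 ± 0.35 with an adjusted p of 0.0026.

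At 200 mg/kg the interaction for Cd177 was -0.87 ± 0.23 with an adjusted p of 0.0027, under the fold limit, and no member was called, where 36.7% of 25702 genes were. DESeq2 called Lcn2 there, at 1.14. At 50 mg/kg no member was called either, where 7.69% of 26323 genes were. Mmp9, at 0.50 ± 0.18 with an adjusted p of 0.057, was the 1 member with an unadjusted p under 0.05 there, and DESeq2 called none.

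Transcripts of Elane, Mpo and Prtn3 were scarce in most libraries. Elane had 36 counts in all 60 mice together, with at least 1 count in 10 mice, and 80.6% of these counts came from 3 mice. No count was found in the unirradiated 100 mg/kg groups or in the 200 mg/kg group on Day 0, which allows up to 0.0216, 0.0181 and 0.0196 CPM in the pooled libraries for 100 mg/kg on Day 0, 100 mg/kg on Day 1 and 200 mg/kg on Day 0, for counting error only. Mpo had 239 counts in all, and Prtn3 902, of which 69% came from 3 mice.

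The 3 mice with the most Elane counts also stood high in Ltf, Camp and Ngp. In mouse 1 (50 mg/kg, Day 0) there were 14 counts of Elane, 57 of Mpo, 331 of Ltf, 92 of Camp and 741 of Ngp. Mouse 5 of the same group had 8 counts of Elane, 39 of Mpo, 113 of Ltf, 39 of Camp and 352 of Ngp. Mouse 35 (50 mg/kg, Day 1) had 7 counts of Elane, 8 of Mpo, 86 of Ltf, 34 of Camp and 246 of Ngp. All 3 had received 50 mg/kg, and the other mice of these groups had 0 counts of Elane.

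Their groups carried these values. At 50 mg/kg on Day 0 the log2 fold change was 2.97 ± 1.49 for Elane, which was tested there, and 1.60 ± 0.97 for Mpo, with adjusted p of 0.19 and 0.28. The medians stood the other way for Mpo at 0.0648 CPM in this group and 0.0948 CPM with vehicle. High counts were not limited to treated mice, since mouse 27 (vehicle, Day 1) held 95 counts of Ltf, 37 of Camp and 256 of Ngp, 29 of Prtn3 and 2 of Mpo, with 0 of Elane. Mouse 1 was 1 of the libraries with liver transcripts. Without these libraries Mpo stood at 0.57, Ltf at -0.26, Camp at 0.13 and Ngp at 0.14 for 50 mg/kg on Day 0, against 1.60, 0.71, 0.81 and 0.88 with them. Under the limit of 100 CPM, Alb was at 55.7 CPM in mouse 5, 21.2 in mouse 27 and 6.64 in mouse 35. Mouse 39 (100 mg/kg, Day 1) had Alb at 58.7 CPM and only 24 summed counts of Ltf, Camp and Ngp. A relation to low Alb was not tested.

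Genes outside the list with the most similar profiles were as follows. For Mmp9, the highest Pearson's r over the 60 mice, on log2(CPM + 1), was 0.98 for each of Lpcat2, B430306N03Rik, C5ar1, Pla2g7 and Sntb2. For Mmp8 it was 0.96 for Jaml, 0.95 for Rab11fip1, Nlrp3 and Mpzl3, and 0.95 for Cd101. For Camp the highest values were 0.55 for Cd209d and Cyp11a1, 0.53 for Ms4a4a, Hist1h4d and Sapcd1, and for Mpo 0.48 for Clec4a1, 0.47 for 4931408C20Rik and Arsb, 0.46 for Itgae and 0.45 for Cx3cr1. All of these share the libraries and their composition.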

How the data were processed

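Whole-blood RNA sequencing was done on 60 mice, 6 in each of 10 groups taken from the labels. The authors trimmed reads with Trimmomatic 0.36, aligned them with STAR 2.5.2b to GRCm38 and counted unique hits per gene with Subread 1.5.2. The deposited counts are raw, and the deposited fold changes and p-values of the authors' own comparisons were not used. The labels describe poly(A) selection and the methods a stranded total RNA kit with globin removal, which cannot both hold, and the strand setting of the counting is not given in the sources used here.

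The 60 columns were joined from 10 tables, in which 60 repeated columns were identical. Genes with at least 10 counts summed over the mice compared were tested with edgeR 4.0.16 in R 4.3.3 (TMM, estimateDisp, glmQLFit, glmQLFTest, Benjamini-Hochberg over all genes tested) in 13 pairs of groups and 4 interactions. DESeq2 1.42.0, total-count scaling, scaling by mature neutrophil genes, other filters, odd or even animal number as a term and left-out libraries were alternatives. Mice were housed 3 per cage, and cages are not given in the labels. On simulated counts with 200 genes changed 4-fold, 71% were called for vehicle TBI against vehicle Day 1 over 24619 genes, with 5 false calls. For the day interaction at 100 mg/kg 86.5% were called, with 10 false calls. All other genes had the same mean in every simulated group, unlike the data, where many genes differed in both directions. The changed genes were drawn from those with higher counts only, so neither share applies to members with few counts, such as Elane, Mpo and Camp.

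The members and lists were chosen with earlier results of these data known. The text names the 10 members, of each other list at most 4 called genes with the largest log2 fold change in a comparison, and the 5 genes with a mean of at least 1 CPM most like Mpo, Camp, Mmp8 and Mmp9. Beyond this, the 8 mature neutrophil genes are named as the scaling set, and Csf3r at 100 mg/kg and Gfi1 were named after their values were seen. Of the lists, Itgam (2 identifiers) and Siglecf (0 identifiers) were left out.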

Additional observations from a re-analysis of the deposited data

Results flagged for a closer look

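In 76 sets of 6 mice, each 1 gene in 1 group with at least 10 counts in its highest mouse, 16 had a mouse whose gap to the next exceeded Dixon's critical value for 6 samples. The critical value is set at 1 in 20 for independent, normally distributed samples. These sets hold counts, some of them low, and share mice between genes, so their number cannot be compared with chance. All values are CPM with TMM scaling.

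For Prtn3, the mouse far above its group stood at 0.768 in vehicle on Day 1 (mouse 27), 0.515 at 50 mg/kg on Day 0 (mouse 5) and 0.447 at 50 mg/kg on Day 1 (mouse 35). After TBI it stood at 12.0 with vehicle (mouse 51) and at 3.02 with 200 mg/kg (mouse 57), both libraries with liver transcripts. For Ltf the mouse was at 2.39 in vehicle on Day 0 (mouse 16), 6.28 at 50 mg/kg on Day 0 (mouse 1) and 3.40 at 100 mg/kg on Day 0 (mouse 11). For Camp it was at 1.74 at 50 mg/kg on Day 0 (mouse 1) and 1.38 at 50 mg/kg on Day 1 (mouse 35), and for Ngp at 7.25 at 100 mg/kg on Day 0 (mouse 11).

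Mmp8 stood at 17.4 in mouse 11 at 100 mg/kg on Day 0 and at 25.8 in mouse 31 at 50 mg/kg on Day 1. Lcn2 stood at 30.2 in mouse 17 of the vehicle group on Day 0 and, as the low mouse, at 2.91 in mouse 43 at 200 mg/kg on Day 1, both libraries with liver transcripts. Cd177 stood at 11.2 in mouse 13 of the vehicle group on Day 0.

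The effect of 100 mg/kg differed between Day 1 and Day 0 for Lcn2, by 1.88 on the log2 scale, and for Cd177, by -1.31, in the interaction term of edgeR's quasi-likelihood fit.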

How the results depend on the processing

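Of 1029 results for single genes under alternatives that left no single mouse out, 961 stayed called or uncalled as before, and of 1627 with 1 mouse left out, 1605 did. Most of these results were uncalled in the main fits, so these counts do not measure how well the calls held. Scaling by mature neutrophil genes turned the sign of 10 results called in either fit, ended 7 calls and added 10. With total counts 7 turned, 3 calls ended and 23 were added. Uncalled values took the other sign 192 times. The cause of the changes below was not tested.

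The number of members called changed as follows. For TBI against vehicle Day 1 it was 6, and 4 with total counts, 7 scaled by mature neutrophil genes, 4 with filterByExpr, which tested 6 members, and 5 each with DESeq2, odd or even animal number and without libraries with liver transcripts. Against vehicle Day 0 it was 6, and 5 with DESeq2 and 4 each with filterByExpr and without those libraries. DESeq2 gave Prtn3 no p in either comparison. Scaled by total counts it was 3 for 50 mg/kg on Day 0, 6 and 7 for 100 and 200 mg/kg on Day 1, 3 for 100 against 50 mg/kg and 3 for the TBI interaction. For the day interactions it was 2, 6 and 3 at 50, 100 and 200 mg/kg. Scaled by mature neutrophil genes it was 1 for 100 against 50 mg/kg, 1 for the TBI interaction and 1 for each day interaction at 100 and 200 mg/kg. At 100 mg/kg on Day 1 it was 0 with edgeR's filterByExpr and 0 without libraries with liver transcripts. It was 1 for the TBI interaction with odd or even animal number as a term and 1 for the day interaction at 200 mg/kg with DESeq2. With 1 mouse left out it ran from 0 to 1 for 100 mg/kg on Day 1, for 100 against 50 mg/kg and for the TBI interaction, from 5 to 7 for TBI against vehicle Day 1 and from 5 to 6 against vehicle Day 0.

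Log2 values turned with scaling by neutrophil genes for TBI against vehicle Day 1 (Ltf -2.54, Mmp8 -1.17, Cd177 -1.78), against vehicle Day 0 (Ltf -2.45, Ngp -2.67, Mmp8 -1.27, Cd177 -1.48, Mmp9 -0.26) and within 200 mg/kg (Mmp8 -0.20, Cd177 -0.32). With total counts they turned on Day 1 for Ngp at 100 mg/kg (-1.31) and for Ltf (-1.27) and Lcn2 (-1.36) at 200 mg/kg. In the day interactions they turned for Mmp8 (-1.18) and Mmp9 (-1.26) at 100 mg/kg and for Mmp8 (-1.06) and Mmp9 (-1.04) at 200 mg/kg. Prtn3 after TBI turned to -0.18 without libraries with liver transcripts.

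No paired analysis was possible because every animal number belongs to 1 mouse. Leaving out single mice was not run for the day interactions. Elane and Mpo counts were too low to resolve moderate differences.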
